A study of Mus musculus with 14 samples.

Results

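The genes described here are those of antigen presentation by major histocompatibility complex (MHC) class II molecules. They were taken by name from a list of 9: H2-Aa, H2-Ab1, H2-Eb1, H2-DMa, H2-DMb1, Cd74, Ciita, H2-Oa and H2-Ob. Of the 9, 8 had a probe set that names that gene alone, out of 22180 such genes on the array, and each of the 8 had 1 such probe set. All 8 passed the filter on dim genes, and 18010 genes in all were tested. The probe set that covers Cd74 also carries another gene's symbol, so Cd74 is not analysed here. H2-Oa has 1 further probe set, which is shared with another symbol and was left out. H2-DMb1 and H2-DMb2 are near-identical copies, so the probes of either gene may take up signal of the other.

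RNA of the jejunum, the middle stretch of the small intestine, was taken from 14 mice and hybridised to Affymetrix whole-transcript arrays, 1 array per mouse. The mice carried LRH-1 K289R (7 mice) or wild-type LRH-1 (WT, 7 mice), and mice of both groups were aged 19 to 21 weeks, ate freely and were sampled at 7 am. LRH-1 is the nuclear receptor encoded by Nr5a2, active in liver, pancreas and gut, and K289R exchanges a lysine that can carry the protein modifier SUMO for an arginine. The labels do not give sex, strain, zygosity or which mice shared a cage, and the whole tissue piece was used, so muscle, stroma, epithelium and immune cells are all in the RNA.

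MHC class II molecules are pairs of an alpha and a beta chain that carry peptides to the cell surface for CD4+ T cells. The class II-like dimer DM loads these peptides in endosomes, and a second such dimer, DO, restrains DM and is best known from B cells. Transcription of these alpha and beta chains and of DM depends largely on the coactivator CIITA, which binds factors sitting on conserved X and Y boxes of the promoters. B cells, dendritic cells and some macrophages express class II genes constitutively, whereas small-intestinal enterocytes do so under interferon gamma.

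Promoters of the members, where a window was available, were searched for letters found in many of these boxes. RefSeq windows (assembly GRCm38.p6, 250 bases before to 50 after the annotated start, 300 in all) were found for 6 of the 9 listed genes. These 6 were H2-Aa, H2-Eb1, H2-DMa, H2-DMb1, H2-Oa and H2-Ob. The letters TGATTGG, the core of a Y box, were searched on both strands, and so were the letters GNAAC, where N is any base, a part of many X boxes. The motifs do not overlap in the 5 windows shown. GNAAC upstream of TGATTGG on the same strand, with a gap of up to 40 bases, was found in 5 of the 6 genes. Over all 32851 windows of this length, 1.05% hold this pair, 7.82% hold TGATTGG and 84.8% hold GNAAC. The stretches below are shown because they line the pair up in genes of both expression patterns described later. Each is 100 bases, 5′ to 3′ on the gene's own strand, with GNAAC and TGATTGG in capitals.
H2-Aa (chr17:34287844-34287943, minus strand): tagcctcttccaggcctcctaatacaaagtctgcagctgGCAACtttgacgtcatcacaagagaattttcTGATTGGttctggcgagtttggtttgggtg
H2-Eb1 (chr17:34305736-34305835, plus strand): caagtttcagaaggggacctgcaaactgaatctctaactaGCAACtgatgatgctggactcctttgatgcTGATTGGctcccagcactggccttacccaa
H2-DMb1 (chr17:34153058-34153157, plus strand): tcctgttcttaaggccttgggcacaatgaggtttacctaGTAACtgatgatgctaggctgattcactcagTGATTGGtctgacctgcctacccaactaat
H2-Oa (chr17:34092264-34092363, plus strand): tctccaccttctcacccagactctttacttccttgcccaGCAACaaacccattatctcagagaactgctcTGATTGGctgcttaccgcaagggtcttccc
H2-Ob (chr17:34238776-34238875, plus strand): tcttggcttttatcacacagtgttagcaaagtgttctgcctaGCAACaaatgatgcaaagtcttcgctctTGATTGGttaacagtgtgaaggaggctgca
The motifs were 26 bases apart in H2-Aa, H2-DMb1 and H2-Oa, 25 in H2-Eb1 and 23 in H2-Ob. Counted from the annotated start, TGATTGG began at −50 in H2-Aa, −61 in H2-Eb1, −63 in H2-DMb1, −45 in H2-Oa and −59 in H2-Ob. H2-DMa has 2 windows in the table, and TGATTGG is in neither, which says only that these letters are not in those windows. A match is a description of letters and no evidence of binding. The pair thus stands in both DO genes and in H2-Aa, H2-Eb1 and H2-DMb1, and in neither H2-DMa window.

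**Figure D1:**
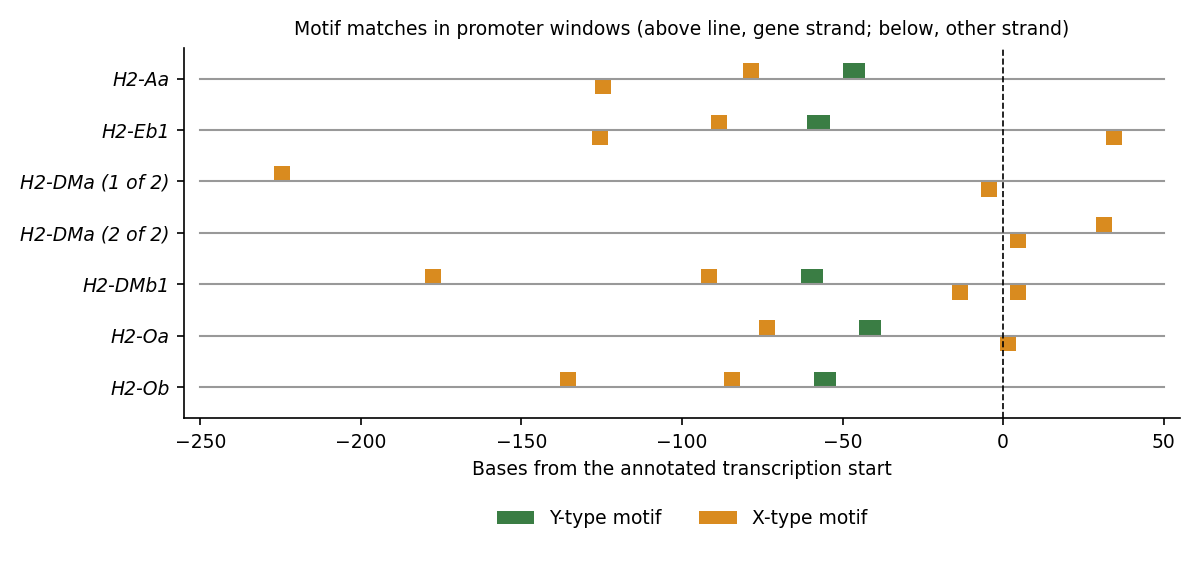
Motif matches in the promoter windows of the 6 genes (H2-DMa has 2 windows), in bases from the annotated transcription start on the horizontal axis. Orange marks the X-type and green the Y-type motif, above the line on the gene's strand and below it on the other strand. The pair lies within 100 bases before the start in 5 genes, with 23 to 26 bases between the motifs.

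Across the arrays, the presenting chains varied widely between mice of the same genotype. H2-Aa, the alpha chain of the I-A molecule, had a log2 intensity of 11.38 at the lowest, 12.46 at the median and 12.78 at the highest on the 7 K289R arrays, against 10.65, 11.88 and 12.45 on the 7 WT arrays. The genotypes overlapped, with 5 K289R arrays above the WT mean, and the dimmest and brightest of the 14 arrays were 4.36-fold apart. H2-Ab1, the I-A beta chain, ran from 12.15 over a median of 13.26 to 13.36 in K289R and from 11.69 over 12.85 to 13.17 in WT. H2-Eb1, the beta chain of I-E, ran from 10.91 over 11.68 to 11.82 in K289R and from 10.21 over 11.25 to 11.54 in WT. For all 3 chains the lowest 5 arrays were the same, K289R replicates 1 and 2 and WT replicates 1, 6 and 7, and the genotypes overlapped. H2-Ea, whose product pairs with the I-E beta chain in strains that make it and which the RefSeq table lists as a transcribed pseudogene, was between 6.12 and 6.65 in K289R and between 6.09 and 6.56 in WT. The filter on dim genes lies at a log2 intensity of 6.25, so H2-Ea stayed near it on every array, and it did not follow H2-Aa (r = 0.13 over the 14 arrays).

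The peptide loading genes and the coactivator had the same low arrays. H2-DMa, the alpha chain of DM, ran from 9.82 over 11.17 to 11.27 in K289R and from 9.34 over 10.50 to 11.06 in WT. H2-DMb1, a DM beta chain, ran from 6.91 over 8.02 to 8.12 in K289R and from 6.62 over 7.21 to 7.99 in WT. For both genes, too, K289R replicates 1 and 2 and WT replicates 1, 6 and 7 were the lowest 5 arrays. Ciita, the coactivator itself, ran from 8.80 over 9.34 to 9.57 in K289R and from 8.48 over 9.16 to 9.62 in WT. The dimmest and brightest arrays were 2.21-fold apart for Ciita, and its lowest 5 arrays were these same 5. The genotypes overlapped for all 3 genes.

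The DO genes were ordered differently. H2-Oa, the DO alpha chain, ran from 7.42 over 7.66 to 7.88 in K289R and from 7.45 over 7.77 to 7.93 in WT. H2-Ob, the DO beta chain, ran from 7.84 over 8.40 to 8.82 in K289R and from 7.98 over 8.38 to 8.65 in WT. The lowest 5 arrays for H2-Ob were K289R replicates 4 and 7 and WT replicates 2, 4 and 7, and 2 of these, K289R replicates 4 and 7, were among the 4 brightest K289R arrays for H2-Ab1. K289R replicate 2, the lowest K289R array for H2-Aa, was the highest of all 14 for H2-Ob. WT replicate 7, in contrast, was among the lowest 5 for H2-Ob and was also the lowest for H2-Aa.

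**Figure D2:**
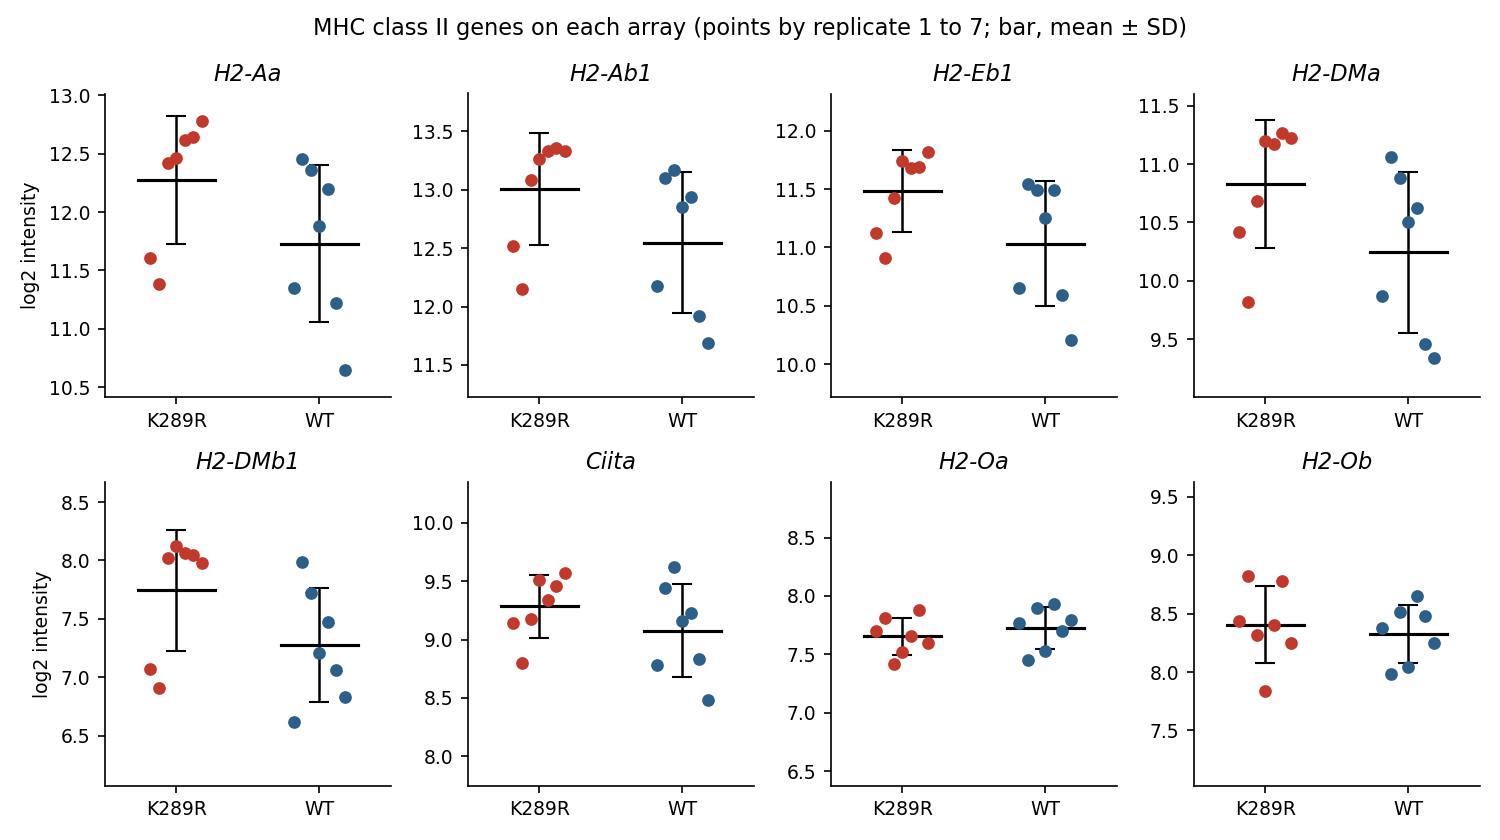
Log2 intensity of the 8 genes on each array, K289R left and WT right, with 1 point per mouse ordered by replicate number and the mean ± SD (n = 7 each). All panels span the same log2 width, and the points of the genotypes overlap in every panel. For all genes but H2-Oa and H2-Ob, the lowest 5 arrays are K289R replicates 1 and 2 and WT replicates 1, 6 and 7.

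The comparison of K289R with WT asks whether altering the SUMO site of LRH-1 goes with another level of these transcripts in the jejunum. None of the 8 genes passed limma's test (adjusted p under 0.05 over all 18010 genes), where 8 genes of all those tested, or 0.0444%, did. The means of 7 of the 8 were higher in K289R, against 48% of all genes tested, and the median difference of the 8 was 0.45 log2, against −0.0039 over all genes. These 8 genes are not 8 independent observations, since 6 of them moved together from mouse to mouse. At an unadjusted p under 0.05 there was 1 of 8, H2-Eb1, which was higher in K289R. The share of all genes at that limit was 8.48%, and 4.43% were higher in K289R. The genotypes' arrays did not separate for any of the 8 genes, and they did so for 0.167% of all genes tested.

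H2-DMa averaged 10.83 ± 0.55 in K289R and 10.25 ± 0.69 in WT (SD, n = 7 each). Its difference of 0.58 (SE 0.283, limma adjusted p = 0.600) had a 95% interval of −0.02 to 1.18. H2-Aa averaged 12.27 ± 0.55 in K289R and 11.73 ± 0.67 in WT (SD, n = 7 each), a difference of 0.54 (SE 0.279, limma adjusted p = 0.609). H2-Eb1 averaged 11.48 ± 0.35 in K289R and 11.03 ± 0.54 in WT (SD, n = 7 each), a difference of 0.45 (SE 0.207, limma adjusted p = 0.565). H2-Ab1 differed by 0.46 (SE 0.249) and H2-DMb1 by 0.47 (SE 0.229). The upper ends of the intervals of these 5 genes lay between 0.89 and 1.18 log2, so differences of that size are within what these arrays allow.

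Ciita differed by 0.21 (SE 0.158), with an interval of −0.13 to 0.54. For the DO genes the differences were small, −0.07 (SE 0.084) for H2-Oa and 0.08 (SE 0.137) for H2-Ob, with intervals of −0.24 to 0.11 and −0.21 to 0.37. With an exact permutation test over the 3432 splits of 7 against 7 arrays, 2-sided, p was between 0.0862 (H2-Eb1) and 0.626 (H2-Ob), where the smallest p this design allows is 0.000583. Without WT replicate 7, the lowest array for the presenting chains, H2-Aa was at 0.36 and Ciita at 0.11.

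**Figure D3:**
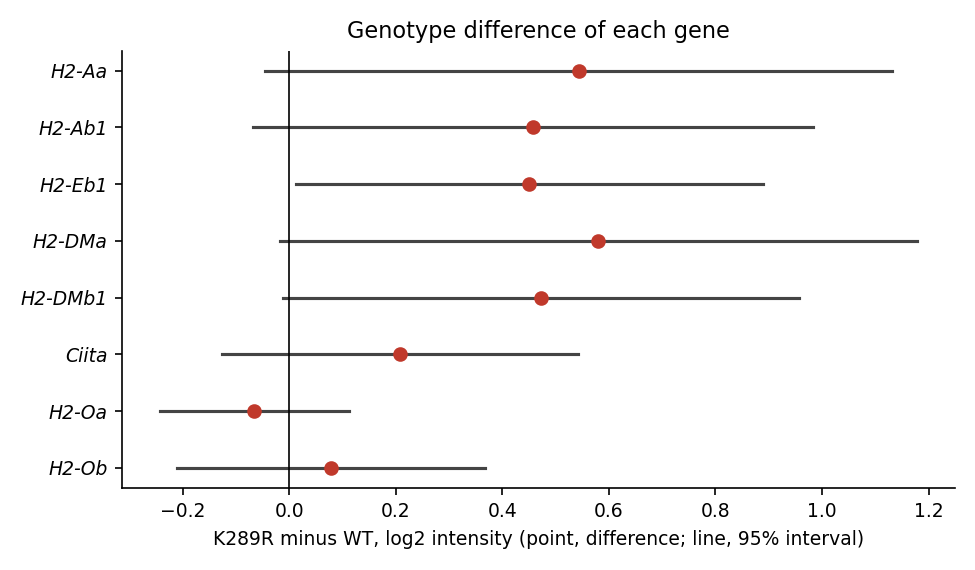
Difference of K289R minus WT in log2 intensity for each gene (points) with limma's 95% interval (lines), 7 arrays per genotype. The 5 presenting and loading genes lie between 0.45 and 0.58 with intervals reaching 0 or nearly so, and H2-Oa and H2-Ob lie near 0.

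Within genotype, the genes formed 2 patterns. Each gene's log2 values were centred on the mean of each genotype, and Pearson's r was computed for the 28 pairs over the 14 arrays. The p values come from 100000 permutations of the arrays within genotype, with Benjamini-Hochberg adjustment over the 28 pairs. All 15 pairs among H2-Aa, H2-Ab1, H2-Eb1, H2-DMa, H2-DMb1 and Ciita passed the threshold, with r between 0.845 and 0.984 and a median of 0.951. The largest adjusted permutation p among these 15 was 0.00091. H2-Oa and H2-Ob went together with r = 0.833 (rho = 0.855, adjusted permutation p = 0.0012). Of the 12 pairs across the patterns 0 passed, none had an unadjusted permutation p under 0.05 within either genotype, and r lay between −0.37 and −0.14.

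Among single pairs, H2-Ab1 and H2-DMa had the highest r, 0.984 (rho = 0.930). The permutation p of this pair was 1e-05, the smallest that the permutations can give. H2-Aa and Ciita had r = 0.938 (rho = 0.930, permutation p = 1e-05), and H2-Aa and H2-DMb1 had r = 0.905 (rho = 0.842, permutation p = 0.00041). Among the 7 K289R arrays the 15 pairs had r between 0.838 and 0.984, and among the 7 WT arrays between 0.840 and 0.991. With exact permutation over 7 arrays, all 15 passed by r in each genotype alone. By rho, the pairs of H2-DMb1 with the others lay between 0.5 and 0.679 in K289R and between 0.857 and 0.929 in WT. On the K289R arrays, H2-DMb1 was at 7.07 and 6.91 in replicates 1 and 2 and between 7.98 and 8.12 in the rest. H2-Oa and H2-Ob had r = 0.802 in K289R (exact permutation p adjusted over the pairs 0.0552) and r = 0.906 in WT (0.0207). Without the 2 arrays farthest from the median of the first gene of a pair, the 15 pairs had r between 0.818 and 0.972, and H2-Oa with H2-Ob 0.873. All these values share the arrays and the cell makeup of each tissue piece.

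**Figure D4:**
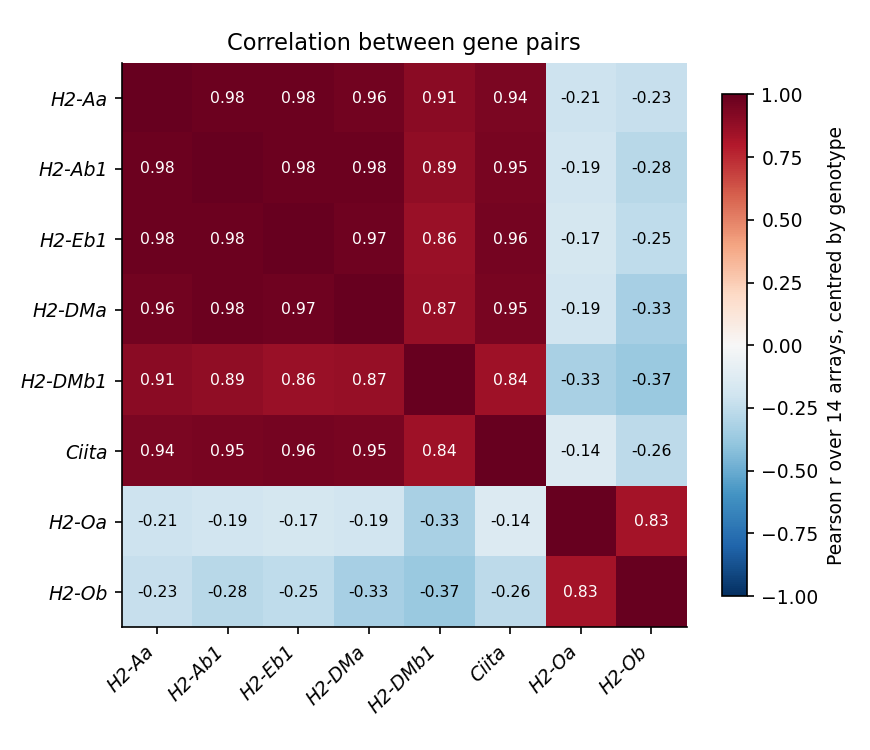
Pearson r between the 8 genes over 14 arrays after centring each gene on its genotype means (colour and number, scale −1 to 1). H2-Aa, H2-Ab1, H2-Eb1, H2-DMa, H2-DMb1 and Ciita form a block with r of at least 0.845, H2-Oa and H2-Ob a second block with 0.833, and the values between the blocks are below 0.

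Markers of immune cells were set beside each gene in the same way. Over 48 relations, of 8 genes with the means of 6 marker lists, 8 passed after adjustment over the 48. H2-Ob went with the B cell marker mean (12 genes, Cd79a and Ms4a1 among them), with r = 0.893 (rho = 0.881, adjusted permutation p = 0.00648). H2-Oa had r = 0.779 with the B cell mean (rho = 0.793, adjusted permutation p = 0.012). Without the 2 arrays farthest from the median of the B cell mean, these were 0.904 and 0.841. Within one genotype, r with the B cell mean was 0.879 in K289R and 0.916 in WT for H2-Ob, and 0.696 in K289R and 0.897 in WT for H2-Oa. None of the 48 relations passed within a genotype alone, where the lowest adjusted exact permutation p was 0.25 in K289R and 0.121 in WT. The B cell mean ran from 7.32 over 7.92 to 8.41 in K289R and from 7.36 over 7.77 to 8.13 in WT.

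H2-Aa, in contrast, had r = −0.19 with the B cell mean (rho = 0.0022, adjusted permutation p = 0.662), and the other 5 genes of its pattern had r between −0.33 and −0.19. None of these 6 values passed. Within one genotype, the 6 genes had r with the B cell mean between −0.573 and −0.43 in K289R and between −0.155 and 0.102 in WT. Means of dendritic cell and macrophage markers had r of 0.185 and 0.404 with H2-Aa (adjusted permutation p = 0.662 for both), and the mean of enterocyte markers 0.176 (also 0.662). The plasma cell mean had r = 0.329 with H2-Aa (also 0.662). Within one genotype this r was −0.108 in K289R and 0.719 in WT (adjusted exact permutation p = 0.855 and 0.4). In whole tissue, fewer cells of a type and less RNA per cell cannot be told apart.

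The T cell marker mean (13 genes, Cd3e, Cd3g and Cd8a among them) was the list that went with the 6 genes. Single genes of the list had r with H2-Aa from 0.265 (Cd2) to 0.868 (Cd3e), with Cd4 at 0.480. Of the 13, 9 were over 0.5, where 3.51% of all tested genes were. The r of the mean was 0.823 with H2-Aa (rho = 0.710, adjusted permutation p = 0.00778) and 0.862 with H2-Ab1 (rho = 0.776, adjusted permutation p = 0.00648). For all 6 it lay between 0.776 and 0.862, and within one genotype between 0.669 and 0.844 in K289R and between 0.821 and 0.913 in WT. It was −0.09 with H2-Oa and −0.13 with H2-Ob. Without the 2 arrays farthest from the median of the T cell mean, r was 0.777 for H2-Aa and between 0.667 and 0.813 for the 6 genes. In 4 arrays, K289R replicate 2 and WT replicates 1, 6 and 7, T cell means of 7.65 to 7.85 stand below the 8.22 to 8.83 of the other 10. Over those 10 arrays, a limit chosen after the values were seen, r with the T cell mean was 0.515 for H2-Aa (rho = 0.467, permutation p = 0.137), and between 0.266 and 0.549 for the 6 genes, none past the threshold after adjustment over the 11 relations computed there. These arrays were kept by the T cell mean itself, which narrows its range and by itself lowers r.

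Over the same 10 arrays, H2-Aa was set beside the other 5 genes of its pattern, with r between 0.732 and 0.962, all 5 past the threshold by r. K289R replicate 1, a low array for all these genes, is still among the 10. Its H2-Aa value was 11.61, against 12.42 to 12.78 on the other K289R arrays kept. H2-Aa and H2-DMb1 had r = 0.924 there, but rho = 0.636 with a permutation p of 0.0668. H2-Aa and H2-Ab1 had r = 0.962 (rho = 0.818, permutation p = 0.00106), and H2-Aa and Ciita 0.732 (rho = 0.745, permutation p = 0.00573). With the T cell mean as a covariate of the genotype fit, the difference of K289R minus WT was 0.27 (SE 0.171) for H2-Aa and 0.30 (SE 0.175) for H2-DMa, and 0.06 (SE 0.104) for Ciita. H2-Ab1, H2-Eb1 and H2-DMb1 were at 0.20, 0.26 and 0.25 in that fit. The T cell mean itself ran from 7.65 over 8.41 to 8.68 in K289R and from 7.75 over 8.25 to 8.83 in WT. Of the 13 T cell genes 0 passed limma's test, 0 had an unadjusted p under 0.05 (8.48% over all genes), and 11 had a higher mean in K289R (48% over all genes). With the B cell mean as a covariate, H2-Aa was at 0.58 and H2-DMa at 0.62. The part of T or B cell content in the genotype difference was not tested.

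**Figure D5:**
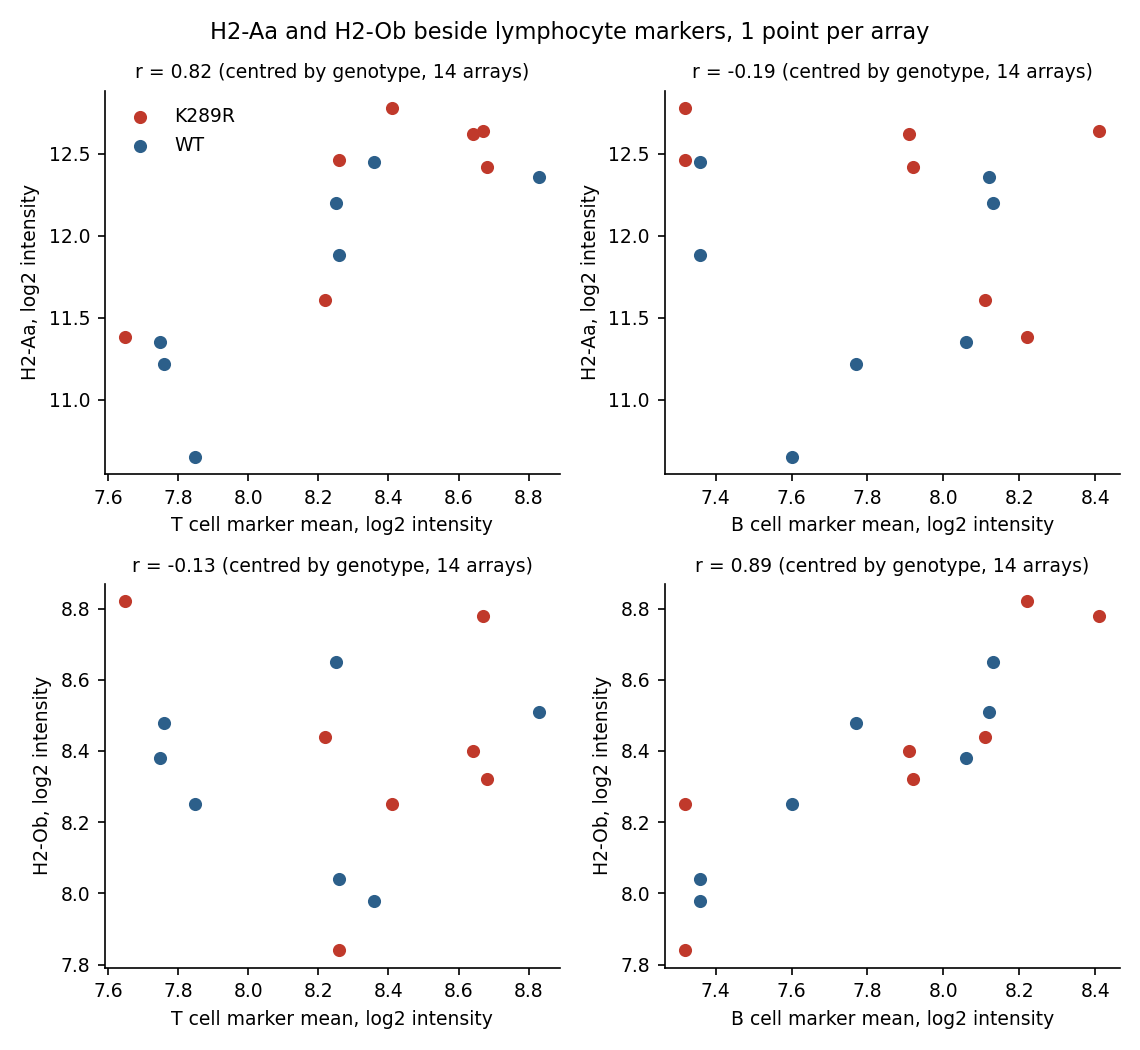
Log2 intensity of H2-Aa (top) and H2-Ob (bottom) against the mean log2 intensity of T cell markers (left) and B cell markers (right), 1 point per array, K289R in red and WT in blue. H2-Aa goes with the T cell mean (r = 0.82) and H2-Ob with the B cell mean (r = 0.89), while the crossed panels show r of −0.19 and −0.13.

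The genes most like H2-Aa over the 14 arrays were named by Pearson's r of genotype-centred values, as a description with no test. All of them share the arrays and the cell makeup of the pieces. Outside the class II list, H2-Q4, a nonclassical class I gene, came first with r = 0.946, and its probe set may take up signal of related class I genes. Then came Adcy7, an adenylyl cyclase gene, with 0.899, Zbp1, a sensor of nucleic acids induced by interferon, with 0.881, and Sh2d3c with 0.879. Tap1, which moves peptides into the endoplasmic reticulum for class I, had 0.873, and Cd3e, a T cell receptor subunit, 0.868. Gbp7 and Irgm2, interferon-induced GTPase genes of cell-autonomous defence, had 0.862 and 0.860. Cpq, a peptidase gene, and Nkg7, a gene of cytotoxic granules, had 0.859 and 0.856. At the other end stood Svip, an inhibitor of endoplasmic reticulum-associated degradation, with −0.892, Gm5485 with −0.860 and A730063M14Rik with −0.843.

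For H2-Ob the same ranking was added after its values were seen. Pax5, the B cell identity factor, came first with r = 0.950. Clu, a secreted chaperone gene, had 0.927, Cd79b, a B cell receptor subunit, 0.925, Siglecg 0.904, the IgM receptor gene Fcmr 0.898 and Dok3 0.887. The lymphotoxin beta gene Ltb had 0.879, and Cd22, Btla and the homing receptor gene Ccr7 had 0.875, 0.860 and 0.857. All 10 had r with H2-Aa below 0, from −0.36 to −0.05. Of the remaining 3 class II genes tested, not in the list of 9, none had r over 0.5 with H2-Aa. H2-DMb2, the second DM beta chain, had r = 0.848 with H2-Ob and −0.22 with H2-Aa, and H2-Eb2 had 0.714 with H2-Ob and −0.10 with H2-Aa. H2-Ea had 0.154 with H2-Ob and 0.132 with H2-Aa. H2-DMb2 ran from 7.39 over 8.31 to 8.97 in K289R and from 7.25 over 8.24 to 8.57 in WT, so the DM beta genes had different orders of arrays despite their likeness in sequence.

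Other genes of the pathway were taken from lists, and of these 0 passed limma's test over all genes, in either direction. Over all genes tested, 48% had a higher mean in K289R and 8.48% had an unadjusted p under 0.05. Genes of a list share the arrays and the cell makeup of the pieces, so their counts are not independent observations. Among factors on class II promoters (11 tested), the regulators were not like H2-Aa, with r from −0.28 to 0.29. The Y box factor gene Nfya had a lower mean in K289R, with a difference of −0.30 (SE 0.078, adjusted p = 0.273 by limma), and the X box factor gene Rfx5 differed by 0.13 (SE 0.065). The median difference of the 11 was −0.03, 4 had a higher mean in K289R, and 1, Nfya, had an unadjusted p under 0.05. Of 15 genes of endolysosomal processing and class II turnover, 7 had a higher mean in K289R, with a median of −0.01, and 2 had an unadjusted p under 0.05. Sppl2a, the protease that clears the invariant chain remnant, differed by 0.13 (SE 0.050), and the cathepsin gene Ctsz by −0.11 (SE 0.050). Their r with H2-Aa lay between −0.39 and 0.44 over the 15.

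Of 16 class I presentation genes, 12 had a higher mean in K289R (48% over all genes), with a median of 0.08. None of the 16 had an unadjusted p under 0.05 (8.48% over all genes). Of these 16, 11 had r over 0.5 with H2-Aa, where 3.51% of all tested genes did. They included Nlrc5, the class I counterpart of Ciita, with 0.843, and the immunoproteasome genes Psmb9 with 0.840 and Psmb8 with 0.821, singled out after their values were seen. Tap1 differed by 0.30 (SE 0.211) between the genotypes and Erap1, which trims peptides, by 0.10 (SE 0.056). Of 25 genes of the interferon gamma pathway, 22 had a higher mean in K289R (48% over all genes), with a median of 0.11. An unadjusted p under 0.05 was found for 4 of the 25, all higher in K289R (4.43% over all genes). Among the 25, 16 had r over 0.5 with H2-Aa. Cd274, which encodes the checkpoint ligand PD-L1, differed by 0.39 (SE 0.118, adjusted p = 0.380 by limma), with r = 0.831. Gbp4 differed by 0.37 (SE 0.137), with r = 0.752. The cytokine gene Ifng itself and its receptor genes Ifngr1 and Ifngr2, also singled out, had r of 0.18, −0.44 and −0.24. Of 6 costimulation genes, 6 had a higher mean in K289R (48% over all genes), with a median of 0.08. Among them 1, Cd274, had an unadjusted p under 0.05 (8.48% over all genes), and Cd40 differed by 0.12 (SE 0.077).

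The labels were checked against markers, since the series title has the word hepatic. By log2 intensity, the mean of 14 enterocyte genes was between 13.12 and 13.30 in K289R and between 13.08 and 13.29 in WT, and albumin (Alb), the leading hepatocyte transcript, was between 6.56 and 7.35 in K289R and between 6.82 and 7.17 in WT, where the filter on dim genes is at 6.25. The mean of the 7 hepatocyte genes tested was between 8.02 and 8.35 in K289R and between 8.18 and 8.32 in WT, with Ttr averaging 8.48 in K289R and 8.59 in WT. Fabp6, a bile acid binding protein gene of the distal small intestine, was above 8, a limit chosen after its values were seen, on 4 arrays, at 10.71 and 9.91 in K289R replicates 2 and 7 and at 12.52 and 9.18 in WT replicates 1 and 6. Of these 4, all but K289R replicate 7 were among the 5 low arrays of the class II genes and among the 4 with the lowest T cell means. The relation of the class II genes to the T cell mean without the arrays with high Fabp6 is not given here. Without the 4 arrays, H2-Aa differed by 0.44 (SE 0.302) and H2-DMa by 0.47 (SE 0.275), and the number of pairs past the threshold was 16, as with all arrays. The part of Fabp6 in the differences between mice was not tested.

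The marker lists gave 0 genes past limma's threshold, where 0.0444% of all genes tested passed. At an unadjusted p under 0.05 they gave 2 of 13 macrophage genes, 1 of 7 hepatocyte genes and 6 of 10 stroma and smooth muscle genes. The other lists gave 0, and the share of all genes tested was 8.48%. The 6 stroma and smooth muscle genes were all higher in K289R, against 4.43% of all genes. Genes of a list share the arrays and the cell makeup of the pieces, so they are not independent observations. Among lymphocyte and plasma cell lists, the median difference was 0.10 for 12 B cell genes, with Cr2 at 0.30 and Cd22 at 0.16, and 0.16 for 13 T cell genes, with Cd3g at 0.58 and Cd8b1 at 0.16. It was 0.06 for 7 plasma cell genes, with Tnfrsf17 at 0.18 and Pou2af1 at 0.11, and 0.05 for 3 innate lymphoid genes, with Gata3 at −0.12 and Il23r at 0.13. For myeloid cells it was 0.02 over 11 dendritic cell genes, with Cd209a at −0.18 and Batf3 at −0.12, and 0.09 over 13 macrophage genes, with Mertk at −0.31 and Mrc1 at 0.15.

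For the epithelium the median was 0.0048 over 14 enterocyte genes, with Cdh1 at 0.05 and Vil1 at −0.05, and 0.0029 over 8 crypt base genes, with Slc12a2 at 0.09 and Mki67 at 0.08. It was −0.11 over 6 distal small intestine genes, with Gucy2c at −0.06 and Slc51a at −0.16, and −0.01 over 7 hepatocyte genes, with Apoh at −0.19 and Ttr at −0.11. Over 10 stroma and smooth muscle genes it was 0.19, with the smooth muscle actin gene Acta2 at 0.19 (SE 0.048) and the myosin gene Myh11 at 0.27 (SE 0.076). The mean of this list ran from 10.02 over 10.32 to 10.38 in K289R and from 9.91 over 9.95 to 10.25 in WT, and its part in the class II difference was not tested. Its genes had r between −0.15 and 0.36 with H2-Aa. The 6 distal small intestine genes all had r with H2-Aa below 0, from −0.76 (Cubn) to −0.08 (Ccl25), with Fabp6 at −0.35. Their median r was −0.34, against −0.014 over all genes tested. The part of these genes in the differences between mice was not tested.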

How the data were processed

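The authors deposited, for each of the 14 arrays, a linear intensity for 41345 probe sets (7.40 to 20050.3), made with Affymetrix Expression Console per the submitters' processing notes. Not given in the sources used here are its version, summarisation and normalization. Per the labels' protocols, 100 ng of Trizol-extracted RNA was amplified per array, and mice were housed 5 per cage. Array medians of 168 to 174 show values already brought to 1 scale, so they were log2-transformed only. Arrays of 1 genotype correlated with r from 0.981 to 0.994. The number of arrays limits the precision (median SE 0.067).

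Probe sets with 1 symbol in the platform annotation (23521) were used, 1814 with several were left out and 16010 are unnamed here. The probe set with the highest mean stood for a gene. Genes were left out where their mean lay under log2 6.25, the probe sets' 25th percentile. K289R minus WT was tested in R 4.3.3 by limma 3.58.1, with lmFit and eBayes, 2-sided, without a covariate, and with Benjamini-Hochberg adjustment over 18010 genes. The fit and the ranking by r were tested on simulated data. Same-numbered mice did not deviate together (r from −0.15 to 0.17, over 0.1 in 1 of 7 pairs). The labels call the mice biological replicates.

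Genes named by rule are all 8 members, the 2 genes with the smallest p of each list, and the 10 most and 3 least like H2-Aa. Other genes named, Cd79a, Ms4a1, Cd8a, Cd2, Cd4 and Cubn among them, fall under none of these rules, whether or not they are said to be singled out. The members and lists were chosen with earlier results of these data known, so nothing here is independent support for them. Alternatives were other normalizations, filters, probe set rules, variance models, array weights, a replicate block, B or T cell means as a covariate, and leaving out arrays.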

Additional observations from a re-analysis of the deposited data

How the results depend on the processing

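Of the 8 genes, 0 passed the threshold in each of 26 refits, and 0 of the other pathway genes did. The differences of H2-Aa, H2-Ab1, H2-Eb1, H2-DMa, H2-DMb1 and Ciita were above 0 and that of H2-Oa below 0 in all 26. In several of these refits the difference could not change. Other filters, variance models and the replicate block do not alter it, nor do probe set rules where a gene has 1 probe set. The exact permutation test uses the difference of the main fit, so its sign there was fixed. H2-Ob was at −0.0016 with the B cell mean as a covariate and above 0 otherwise, and without K289R replicate 2 it was at 0.0095. Over fits that left out 1 array, H2-DMa ran from 0.43 to 0.75, H2-Aa from 0.36 to 0.69 and the median of the 8 genes from 0.31 to 0.57. The number of pairs past the threshold was 16, and 15 to 16 over 6 alternatives, with 15 among the K289R arrays alone. The number of all genes past the threshold, 8, was 14 with array weights, 5 without the 4 arrays with high Fabp6, and between 4 and 14 without 1 array. It was 4 without K289R replicate 4, WT replicate 3 or WT replicate 4, 5 without K289R replicate 7 and 14 without K289R replicate 5. The cause was not tested. With the replicate block it was 0 by limma, with 1465 genes at an unadjusted p under 0.05 against 1528 without the block, and H2-DMa was at 0.58 (SE 0.306). The replicate numbers are not known to pair the mice. In the T cell covariate fit the median of the 8 genes was 0.22. Signal over background was not measured here, so what it limits in single genes is not known.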
